A study of Arabidopsis thaliana with 2 samples.

Results

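AT4G33550, AT2G37870 and AT1G48750 are Arabidopsis thaliana genes for lipid transfer-type proteins whose signal differed between a pair of hypocotyl samples that the labels describe alike. They were chosen by locus because each had a signal at least 2-fold higher in hypocotyl replicate 1 than in replicate 2, with both signals above the Bacillus control probe sets, which target bacterial transcripts and mark the background. Each locus had 1 probe set, so the members are 3 of 22746 plant probe sets on the array. The signals that chose them are given below as a description with no test.

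Transcripts were measured in 2 samples of hypocotyls, the stem below the seed leaves, of the Col ecotype at growth stage 6.0. Both samples came from plants kept in a phytotron at 22 °C on compost and vermiculite, under a short day of 8 h light and 16 h dark, with Intercept added to the first watering. Total RNA of each sample was labelled with biotin and hybridised to its own ATH1 array, a 1-colour Affymetrix design in which each transcript is read by a set of short probes. The 2 samples form 1 group with no contrast, the labels do not say whether they came from separate plants, and with 2 arrays no test was possible.

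Lipid transfer proteins are small, secreted, cysteine-rich proteins with a hydrophobic cavity that holds fatty acids and other lipids. Disulfide bonds between conserved cysteines hold their helices together. The family is known for roles at the plant surface, in the deposition of cutin and wax, and in defence signalling, and many of its genes respond to drought, cold or salt. Its branches include the type 1 proteins, other small secreted proteins, proteins tied to the membrane by a glycosylphosphatidylinositol (GPI) anchor, and hybrid proteins with a proline-rich stretch before the cysteine-rich domain. The 3 members were placed, from general knowledge of the family, among the small secreted proteins without an anchor or a proline-rich stretch. Sequences were not used here, so neither this placement nor the cysteine pattern that defines the fold was checked.

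AT4G33550, on chromosome 4, had a scaled signal of 163 in replicate 1 and 35.4 in replicate 2. Replicate 1 was 4.60-fold brighter, a log2 ratio of replicate 2 over replicate 1 of -2.20. The mean signal was 99.2 ± 90.2 (SD, n = 2), so the spread between the samples was nearly as large as the level itself. Even the lower signal was 2.81 times the brightest Bacillus control on its array, which stood at 12.6, against 13.1 on the array of replicate 1.

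AT2G37870, on chromosome 2, had a signal of 505 in replicate 1 and 174 in replicate 2. The ratio was 2.90-fold, or -1.54 on the log2 scale, and the mean signal was 340 ± 234 (SD, n = 2). Both signals were far from the background, at 38.6 and 13.8 times the brightest Bacillus control of the same array.

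AT1G48750, on chromosome 1, had a signal of 848 in replicate 1 and 389 in replicate 2. It was the member closest to the rule's threshold, at 2.18-fold or a log2 ratio of -1.12. Its mean signal was 618 ± 324 (SD, n = 2), and its lower signal was 30.9 times the brightest Bacillus control.

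**Figure D1:**
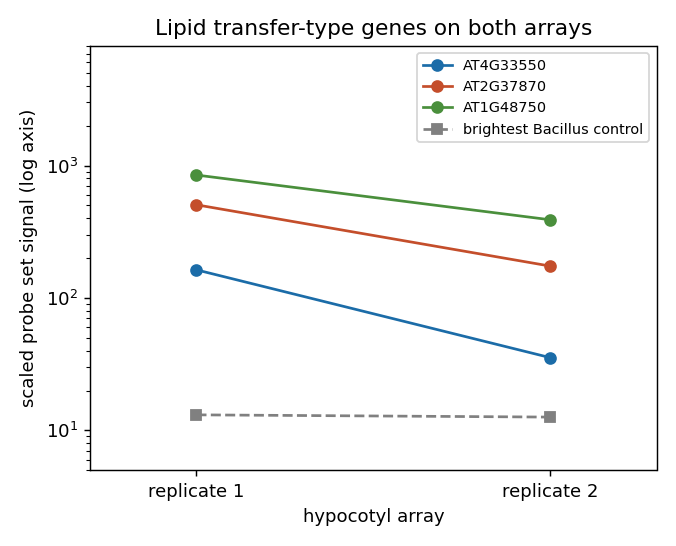
Scaled probe set signal (log axis) of the 3 lipid transfer-type genes on the array of each hypocotyl replicate, with 1 point per array and the brightest Bacillus control as grey squares. Each gene falls from replicate 1 to replicate 2, AT4G33550 from 163 to 35.4, AT2G37870 from 505 to 174 and AT1G48750 from 848 to 389, and every point lies above the controls at 13.1 and 12.6.

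The rule fixed the direction that the members share, and within it their ratios differed in size. Their log2 ratios ranged from -2.20 to -1.12, a width of 1.08. Their summed signal was 1516 in replicate 1 and 599 in replicate 2, a direction that the rule also fixed. No level of 1 member is compared with that of another, because the brightness of a probe set depends on its probes as well as on the RNA. With tissue samples, fewer cells that express a gene and less RNA per cell cannot be told apart. AT4G33550 has 2 RefSeq transcripts and 2 proteins in the gene table of the TAIR10.1 assembly, and AT2G37870 and AT1G48750 have 1 of each. A single signal per locus does not separate the 2 transcripts of AT4G33550.

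Differences of this size in this direction were rare on these arrays. Of 15919 plant probe sets above the brightest Bacillus control on both arrays, 23 were at least 2-fold brighter in replicate 1, which is 0.144%, and 51 were at least 2-fold brighter in replicate 2, which is 0.320%. Since the rule used this contrast, that share is the background of the choice and supports nothing about the members. Ordered by log2 ratio from the lowest, AT4G33550 stood at place 1 of these probe sets, AT2G37870 at place 3 and AT1G48750 at place 9. At 3-fold, 2 probe sets remained toward replicate 1 (0.0126%), AT4G33550 and an unnamed probe set, whose signals were 43.8 and 14.5, and 8 toward replicate 2 (0.0503%).

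The spread between the arrays at like signal was described for each member. The rule chose the members for large ratios, so their place in that spread was set by the choice and supports nothing about them. Among the 6968 probe sets with mean signals within 2-fold of that of AT4G33550, log2 ratios had an SD of 0.236, and the lowest 1% lay under -0.57. At 2-fold or more, 7 of these were brighter in replicate 1 and 22 in replicate 2. The 3567 around AT2G37870 had an SD of 0.196, with 4 probe sets at least 2-fold brighter in replicate 1 and 9 in replicate 2. The 4 were AT2G37870, AT1G48750, OCT1 and an unnamed probe set. The 1975 around AT1G48750 had an SD of 0.176, with 2 probe sets at least 2-fold brighter in each direction. The 2 toward replicate 1 were AT2G37870 and AT1G48750 themselves.

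**Figure D2:**
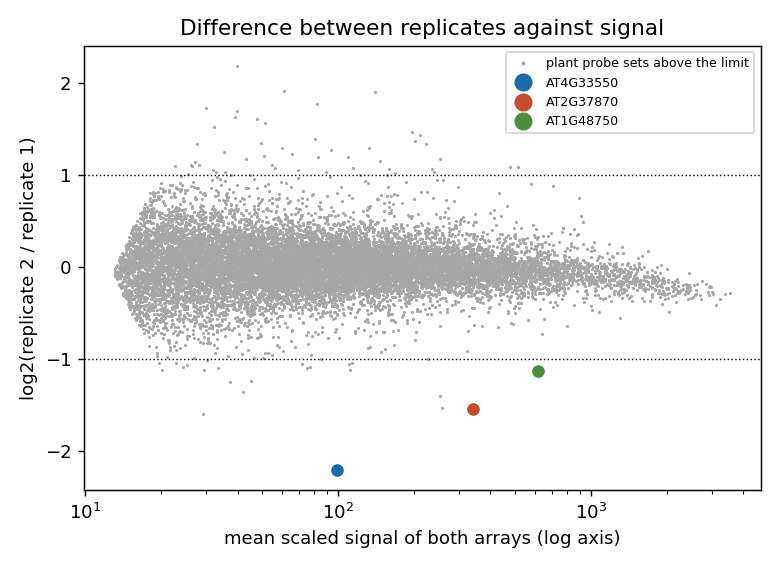
Log2 ratio of replicate 2 over replicate 1 against the mean scaled signal (log axis) for the 15919 plant probe sets above the brightest Bacillus control on both arrays, with dotted lines at 2-fold in each direction. The 3 members, as large coloured points, lie below the lower line at -2.20, -1.54 and -1.12, as the rule that chose them required.

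Besides the members, 9 probe sets with 1 named gene met the same threshold, and 11 that met it were unnamed here. OCT1, a carnitine transporter gene, had signals of 383 and 132.7 and a log2 ratio of -1.53, within 0.01 of that of AT2G37870. AT1G49500 had 102.6 and 48.0, and AT1G49450 had 63.7 and 27.1. AT5G04010, AT3G20900, AT1G57590, AT1G61930, AT3G23930 and AT1G30260 had signals of 52.4 or less in replicate 1 and log2 ratios from -1.25 to -1.01. AT1G30260 was the named gene just inside the threshold, at 2.02-fold (40.3 and 20.0). No other lipid transfer-type gene of the lists was among the named ones, as the rule chose such genes by this threshold.

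Likeness to each member was measured as the distance between log2 signals over both arrays, so it covers 2 samples and joins level with ratio. The search covered probe sets with 1 named gene and left out all others. An unnamed probe set with signals of 105.4 and 49.6, for example, lay nearer to AT4G33550 than any named gene. Nearest to AT4G33550 were AT1G49500 at a distance of 0.80, AT4G22212 at 0.86 and CPUORF47 at 0.88, with log2 ratios of -1.10, -0.99 and -0.96. Nearest to AT2G37870 were AT5G10580 at 0.45, OCT1 at 0.56 and AT2G37900 at 0.61, with log2 ratios of -0.91, -1.53 and -0.70. Nearest to AT1G48750 were AT2G24420 at 0.45, AT1G19835 at 0.50 and BRH1, a brassinosteroid-responsive RING finger gene, at 0.57. Their log2 ratios of -0.57, -0.45 and -0.32 were all smaller in size than the member's -1.12. Among named genes, the gap to the nearest was widest for AT4G33550. The rule chose the members by these same signals, so the gaps supports nothing about them and only describe the values.

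The members lie on 3 different chromosomes, and the genes beside them were looked at in the order of the TAIR10.1 gene table. Of the 18 protein-coding genes within 3 places of a member, 8 had a named probe set, with 9 probe sets in all. Of these, 7 were above the brightest Bacillus controls, and none of the 9 differed by 2-fold. Over all probe sets above the controls, 0.144% reached 2-fold toward replicate 1 and 0.320% toward replicate 2. A count of none among so few is therefore uninformative. AT4G33540 and AT4G33560, on either side of AT4G33550, had signals of 44.3 and 40.7, and of 15.2 and 15.4. AT2G37900, 3 genes from AT2G37870, had 403 in replicate 1 and 249 in replicate 2, a log2 ratio of -0.70. It is the same gene that stood among the named genes nearest in signal. The other probe sets above the controls had log2 ratios between -0.13 and 0.24, and AT1G48780, the measured neighbour of AT1G48750, had 21.8 and 25.7.

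No other family gene measured above the background reached 2-fold. Toward replicate 1 this follows from the rule, which chose lipid transfer-type genes by that threshold, so it supports nothing about the members. A list of 106 loci in the branches named above was written by locus from general knowledge of the family, and 45 had a named probe set. Of these, 27 were above the brightest Bacillus controls on both arrays, and 18 were not. Of all plant probe sets, 70.0% were. The 27 comprise the 3 members, at 2-fold or more toward replicate 1, and 24 others, of which none differed by 2-fold in either direction (0.144% and 0.320% of all probe sets did). Among the 24, 13 were brighter in replicate 1, 10 in replicate 2 and 1 had equal signals, against 49.5% and 50.1% of all probe sets above the controls. Their median log2 ratio was -0.03, and that of all probe sets was 0.00. The log2 ratios of the 24 lay between -0.55 and 0.64, and 20 of them were within 0.5 of 0. At 1.5-fold, the 3 members were still the ones toward replicate 1, where 1.58% of all probe sets were, and 2 family genes were toward replicate 2, where 2.19% were.

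**Figure D3:**
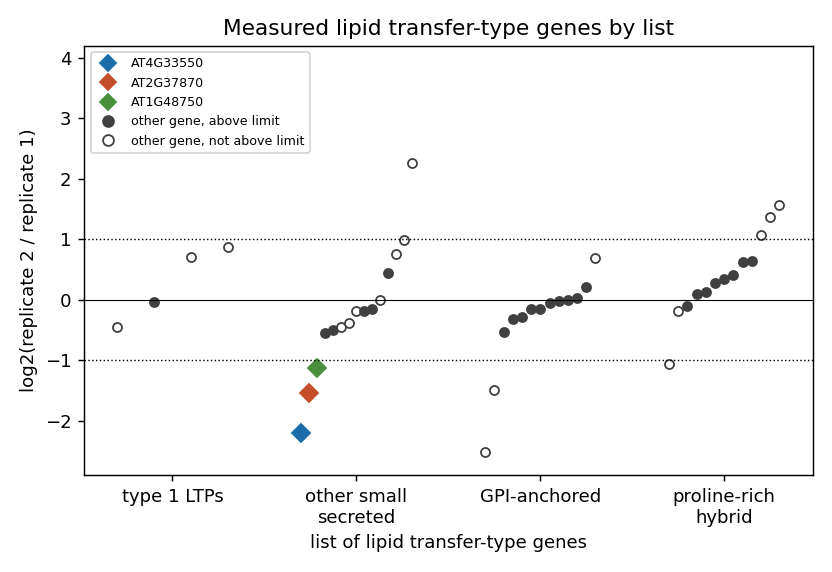
Log2 ratio of replicate 2 over replicate 1 for the 45 measured lipid transfer-type genes in 4 lists, with 1 point per gene, filled where both signals were above the brightest Bacillus control and open where they were not. The 3 members, as diamonds, are the filled points below the lower dotted line at 2-fold, and the other filled points lie between -0.55 and 0.64.

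Among family genes above the controls, those next below the members in ratio were well short of the threshold. They came from the members' own branch and the GPI-anchored one. AT5G05960, another small secreted protein gene, had 1548 in replicate 1 and 1059 in replicate 2, a ratio of 1.46-fold and a log2 ratio of -0.55. AT4G14815, a GPI-anchored protein gene, had 24.0 and 16.6, with a log2 ratio of -0.53. AT3G53980, again a small secreted protein gene, had 2369 and 1685, with a log2 ratio of -0.49. AT2G48130 and AT2G44300, both GPI-anchored, followed at -0.32 and -0.28. Among family genes above the controls, a gap of more than 0.5 on the log2 scale lay between AT1G48750 and the next one. The rule took the members at 2-fold or more, so this gap was partly set by the choice and supports nothing about them.

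Within the small secreted branch, 15 of 31 loci were measured, and 8 of these, the members included, were above the controls. Leaving out the 3 members, 4 of 5 were brighter in replicate 1, as were 49.5% of all probe sets above the controls. The median log2 ratio of the 5 was -0.18. AT3G18280 had 1464 and 1316, a log2 ratio of -0.15, and AT5G38160, near the background, had 16.1 and 14.2. The exception was AT5G55450, with 171.5 in replicate 1 and 233 in replicate 2, a log2 ratio of 0.44. The brightest probe sets tended toward replicate 1 in general: of 1182 with mean signals of 500 or more, 72.3% were brighter there, with a median log2 ratio of -0.08. AT5G05960, AT3G53980 and AT3G18280 are among those 1182, as is the member AT1G48750, and the part of that tendency in their values was not tested. After loess normalization, which removes a trend with signal, the log2 ratio of AT1G48750 was -1.08. The rule chose this gene by its ratio, so that value only describes the processing.

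The other branches were measured as follows. Of 13 measured GPI-anchored protein genes, 10 were above the controls, with 7 brighter in replicate 1, 2 in replicate 2 and 1 equal, and a median log2 ratio of -0.10. AT1G62790, for example, had 342 and 336. Of 13 measured proline-rich hybrid genes, 8 were above the controls and 7 of these were brighter in replicate 2, with a median log2 ratio of 0.31. Several of the 8 had signals not far above the controls, down to 14.7. Over all probe sets above the controls, 49.5% were brighter in replicate 1 and 50.1% in replicate 2. AT4G22460 had 30.8 and 48.0 (log2 ratio 0.64), AT4G12500 had 18.4 and 28.3 (0.62), and the bright AT1G62500 had 1522 and 1657 (0.12). Of 15 type 1 loci, 4 were measured, and AT2G18370 was the one above the controls, with 284 and 277. Whether the branches differ from each other was not tested.

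Large ratios also occurred among family genes with signals at the background. Without any limit, 3 family genes besides the members were 2-fold or more brighter in replicate 1, and 4 in replicate 2, where 3.71% and 5.85% of all plant probe sets with signals over 0 were. AT1G05450 had 5.7 and 1.0, AT1G73560 had 6.2 and 2.2, and AT2G10940 had 7.3 and 3.5, all under the brightest Bacillus controls. AT5G38170, at 1.4 and 6.7, was under them on both arrays too. AT4G22650, AT4G22610 and AT1G62510 had between 8.3 and 9.6 in replicate 1 and between 20.3 and 24.5 in replicate 2, so 1 signal of each was above the control. These 7 genes had at least 1 signal under the control of its array, and 4 of them ran opposite to the members.

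OCT1 also belongs to a list of 20 genes known to respond to dehydration, cold or abscisic acid, which was set beside the members because many lipid transfer protein genes respond to the same cues. Of 7 measured genes of this list, 6 were above the controls, and 1 of them, OCT1, was at least 2-fold brighter in replicate 1 and none in replicate 2, where 0.144% and 0.320% of all probe sets were. Of the 6, 5 were brighter in replicate 1 by any amount, as were 49.5% of all probe sets. PUB19, a ubiquitin ligase gene, had 194 in replicate 1 and 102 in replicate 2. LTI30, which encodes a dehydrin, had 127 and 74.7. Their log2 ratios were -0.92 and -0.77, both smaller in size than that of AT1G48750. XERICO, a RING-H2 zinc finger gene, had -0.42, the dehydrin gene COR47 had -0.34 and COR15B, a chloroplast cold-regulated gene, had 0.32. Its relative COR15A had 14.6 and 7.7 and was not above the control in replicate 2. The median of the 6 was -0.59, against 0.00 over all probe sets. OCT1, PUB19, LTI30 and XERICO were already known from these arrays to be brighter in replicate 1 when the list was written. The counts toward replicate 1, OCT1 at 2-fold included, and the median are therefore descriptions of a chosen list.

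Genes of the plant surface gave little to set beside the members. Of 37 loci for cutin and wax synthesis and export, 2 were measured, AT5G33370 with 8.0 and 5.7 and the wax ester synthase gene WSD1 with 1.4 and 1.0, both under the brightest Bacillus controls. Of 5 epidermis markers, CR4 was measured, at 2.1 and 1.3, so the epidermal share of the samples cannot be read from this list. The 2 leaf markers, RCA and LHCB4.1, summed to 896 in replicate 1 and 946 in replicate 2, and the 2 root hair markers, EXPA7 and EXPA18, to 30.1 and 28.6. Each root hair signal, between 13.6 and 15.2, was little above the brightest Bacillus controls of 13.1 and 12.6, so their ratios are not read. The anther marker AT5G07230 was measured at 2.2 and 1.2, and none of the 6 seed markers was. Seed storage and tapetum relatives of the lipid transfer proteins had 3 of 9 loci measured, none above the controls. All 5 genes active in secondary growth, GUT1, GUT2, CLE41, CLE44 and HCT, were above the controls and summed to 2720 and 2516. The log2 ratios of the leaf and secondary growth genes lay between -0.25 and 0.22. No measured marker had a signal of 0, but CR4 and AT5G07230 were under the brightest Bacillus controls. The part of tissue makeup in the members' values was not tested.

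The arrays differed in some technical measures. Per the labels, the average background was 79.94 for replicate 1 and 95.57 for replicate 2, and the average noise 4.81 and 6.28. Outlier cells numbered 586 on the array of replicate 1 and 974 on that of replicate 2. Whether probes of the members were among these outliers was not tested, since the deposited values are 1 signal per probe set. Control transcripts are read at both ends, and their 3′ over 5′ ratio was 8.45 and 6.55 for actin, 1.82 and 1.85 for ubiquitin, and 1.16 and 1.14 for GAPDH.

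The members' log2 ratios were recomputed under other settings. The settings were the values as deposited, equal medians, quantile normalization, loess normalization and an offset of 16 before log2. Across them, the log2 ratio of AT4G33550 lay between -2.23 and -1.80. That of AT2G37870 lay between -1.56 and -1.46, and that of AT1G48750 between -1.15 and -1.08. The values as deposited could not move a ratio, since both arrays had the same scale factor. These are the values that chose the members, so the ranges describe the processing and support nothing about the members. With a limit of 50 on both arrays, 2 members passed, as AT4G33550 had 35.4 in replicate 2.

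**Figure D4:**
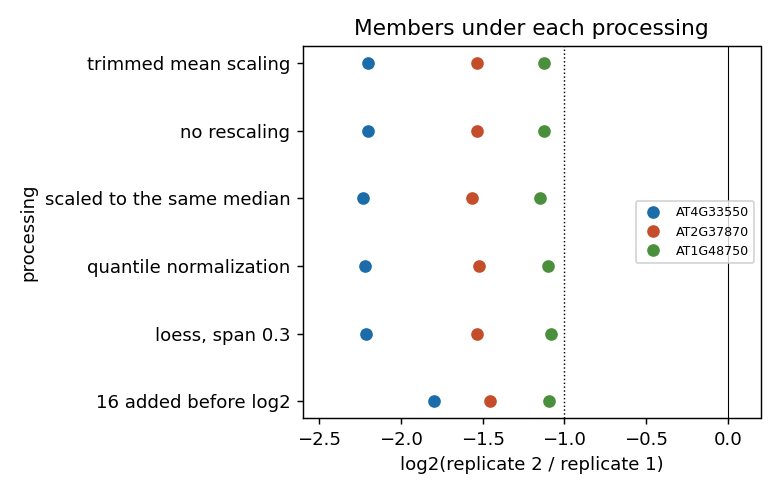
Log2 ratio of replicate 2 over replicate 1 for the 3 members under the trimmed mean scaling used throughout and 5 other settings, with a dotted line at 2-fold. AT4G33550 moves from -2.20 to -1.80 when 16 is added before log2, and every point of AT2G37870 and AT1G48750 stays left of the line.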

How the data were processed

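The authors deposited 1 linear intensity per probe set and array, to 1 decimal, by software not given in the sources. The values show that the authors had scaled both arrays to the same 2% trimmed mean, close to 100, and both were rescaled here to exactly that mean. The number of arrays limits the precision. Of 22810 probe sets, 64 controls were left out of counts, and 13436 had 1 gene of the platform annotation that matched the RefSeq table of TAIR10.1 by gene identifier. A further 503 had several genes, 77 did not match, and 8730 were unnamed. A signal counted as above background when it exceeded the highest of 27 Bacillus control probe sets on its array. Log2 ratios had nothing added.

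The members, lists and rules were chosen with earlier results of these data known. Named genes are the members, the list genes that differed by 2-fold, the 5 lowest and 3 highest log2 ratios and 5 highest mean signals of the family, the extremes of the other lists, all measured markers, the 3 nearest genes to each member, and every named gene at the threshold. Planned comparisons of member proteins and promoters were not run, as sequences were not used here. Alternatives were other scalings and normalizations (loess span 0.3), an offset of 16, other limits and thresholds, plain probe set names and leaving out each replicate. Python 3.11.15, numpy 2.4.6, pandas 2.3.3 and statsmodels 0.14.6 were used, and the counting was tested on simulated arrays. Those had less noise than these arrays and changes at bright signals only, so the test checked the code and not its error rate here.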

Additional observations from a re-analysis of the deposited data

How the results depend on the processing

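The members' log2 ratios stayed at 2-fold or more with equal medians, quantile and loess normalization and the offset of 16, and leaving the values unscaled could not change a ratio because both scale factors were equal. The number of probe sets at least 2-fold brighter in replicate 1 and in replicate 2 was 23 and 51, and it changed with the processing. It was 29 and 46 with equal medians, 30 and 46 after quantile and 29 and 47 after loess normalization, which narrowed the imbalance. It was 5 and 21 with 16 added before log2, 12 and 31 at 2 times the highest Bacillus control, and 7 and 20 at a limit of 50. At 1.5-fold it was 251 and 348, and at 3-fold 2 and 8. The family kept its 3 genes toward replicate 1 at 1.5-fold and gained 2 toward replicate 2, AT4G22460 and AT4G12500. At 3-fold, 1 remained, AT4G33550, and at a limit of 50, 14 family genes were measured above it. From a single array, the level of AT4G33550 was between 35.4 and 163, that of AT2G37870 between 174 and 505, and that of AT1G48750 between 389 and 848. The cuticle list gave no value above the limit. No paired analysis was possible because both samples belong to 1 group.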
